A study of Danio rerio with 2 samples.

Results

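The transcripts described here are those of 5 protein kinases of the AGC group other than Akt, namely pdpk1b, prkca, prkcbb, pkn3 and sgk1. They are among the 84 pathway genes of a real-time PCR array of the PI3K-Akt pathway. The choice was by gene symbol, not by a measured value, though earlier results of these data were known. The assay compared whole zebrafish larvae 10 days after fertilization, namely wild-type (WT) larvae of the AB/TU background against NOD1-deficient larvae, which carry a homozygous 1 bp insertion in NOD1 made with Cas9. The labels name no treatment for either group. The mutant is a single allele, and each of the 3 replicates per genotype was a pool of 200 to 250 whole larvae run on its own array. In such pools, fewer cells of a type and less RNA per cell cannot be told apart.

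The AGC group is named after its protein kinase A, G and C families and also holds Akt, the S6 kinases, the serum and glucocorticoid regulated kinases and the protein kinases N. Phosphoinositide 3-kinase makes a membrane lipid that recruits Akt and 3-phosphoinositide dependent protein kinase-1, the kinase encoded by pdpk1b. That kinase phosphorylates the activation loop of many other AGC kinases, among them Akt, Sgk1, the protein kinases C and the protein kinases N, and is therefore called their upstream activator. Activity of these proteins is set mainly by phosphorylation and lipid binding, and the array reads only their transcripts.

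The measured value was the threshold cycle (Ct), at which the fluorescence of a well passes a set level during PCR. A gene that passes it 1 cycle earlier had about 2 times more template. For delta Ct, the mean Ct of 3 reference genes (hprt1, nono and rpl13a) was subtracted from that of each gene within an array. A log2 change was the mean delta Ct of WT minus that of NOD1-deficient larvae, so that a positive value means more transcript in NOD1-deficient larvae. All 89 genes of the array were detected on each of the 6 arrays, with a highest Ct per array of 33.1 to 35.1. The 5 kinase genes were detected early, with mean Ct in WT from 19.8 for sgk1 to 23.4 for pkn3. The targeted gene has no assay on this array, so the genotype labels could not be checked on it.

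The first question was how strongly each kinase gene was expressed in WT larvae, and where the activating kinase stands among its substrates. Transcripts of sgk1, a kinase that regulates ion channels and transporters, gave the lowest delta Ct. Its values were 0.0140, 0.130 and 0.0381 in WT replicates 1 to 3. The activating kinase pdpk1b came next, with 0.437, 0.716 and 0.527. On each WT array sgk1 was therefore detected before pdpk1b, by 0.50 ± 0.0817 cycles (SD, n = 3), which reads as 1.41-fold more template.

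The other 3 substrate kinases were below pdpk1b. Delta Ct of prkca, which encodes a conventional protein kinase C activated by calcium and diacylglycerol, was 2.27, 2.33 and 2.08 in WT. That is a step of 1.67 ± 0.144 cycles (SD, n = 3) from pdpk1b, the largest between neighbours in this order. The second conventional isoform, prkcbb, gave 2.80, 3.01 and 3.003, and followed prkca by 0.71 ± 0.197 cycles (SD, n = 3). The lowest level was that of pkn3, a member of the protein kinase N family, with 3.60, 3.85 and 3.404. It followed prkcbb by 0.68 ± 0.242 cycles (SD, n = 3).

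For the 4 neighbouring pairs in this order (sgk1, pdpk1b, prkca, prkcbb, pkn3), the WT replicates did not overlap in 4 of 4, nor did the NOD1-deficient replicates in 4 of 4. The order was the same on 6 of 6 arrays. Read against pdpk1b, the WT template was 141.3% for sgk1, 31.5% for prkca, 19.2% for prkcbb and 12.02% for pkn3. Among the 84 pathway genes ranked from the lowest WT delta Ct, sgk1 was at rank 9, pdpk1b at 13, prkca at 32, prkcbb at 41 and pkn3 at 59. These differences between genes are a description without a test. Each assay has its own primers and product, whose efficiencies and lengths are not given in the sources used here, so part of a step between genes can come from the assays.

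**Figure D1:**
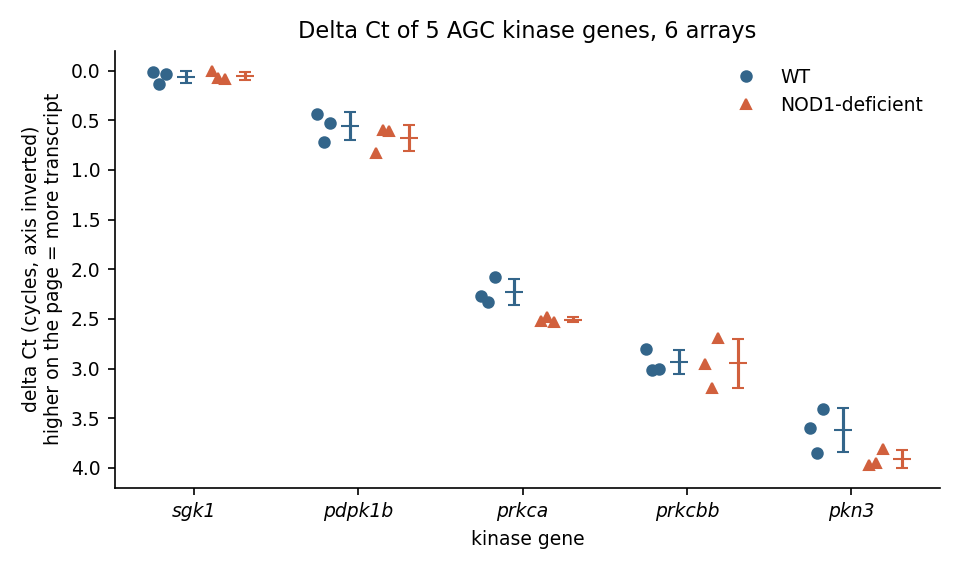
Delta Ct in cycles (vertical axis, inverted so that more transcript is higher) of the 5 kinase genes in 3 WT arrays (circles) and 3 NOD1-deficient arrays (triangles), with the mean and SD beside the points. The genes keep the same order in both genotypes, and prkca is the only one of the 5 whose 3 NOD1-deficient values all lie outside the 3 WT values.

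The next question was which of these genes differ between genotypes. None of the 5 had an adjusted p under 0.05 in limma (two-sided, Benjamini-Hochberg adjusted over the 84 pathway genes). None had an unadjusted p under 0.05 in limma either. The linear model without moderation, in which each gene has its own variance, called 0 of the 5 after adjustment as well. Before adjustment, the 95% interval of prkca in that model (-0.49 to -0.07) excluded 0. Over all 84 genes, limma called 16 (19.0%), of which 3 were higher (3.57%) and 13 lower (15.5%) in NOD1-deficient larvae. An unadjusted p under 0.05 in limma was found for 25 of the 84 (29.8%), and the model without moderation called 6 of the 84 (7.14%). The median log2 change was -0.12 over the 5 kinases and -0.11 over the 84 genes, and 4 of the 5 kinases against 59 of the 84 genes had a value below 0.

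The pdpk1b transcript was close to its WT level with the 3 reference genes used here. No other pathway gene of the array has a symbol that starts with pdpk. Any further gene for the same kinase was therefore not measured. Delta Ct of pdpk1b was 0.829, 0.598 and 0.604 in NOD1-deficient replicates 1 to 3, and these values overlapped the WT values given above. The mean was 0.560 ± 0.142 in WT and 0.677 ± 0.132 without NOD1 (SD, n = 3 each). The log2 change was -0.12 ± 0.160 (SE) with an adjusted p of 0.713 in limma, a level of 92.2% of WT. With these reference genes its 95% confidence interval ran from -0.43 to 0.20, short of a 2-fold change in either direction. That interval leaves out the choice of scaling, which moved the log2 change from -0.28 (nono alone) to 0.79 (acta1b alone). With 1 array left out the value ran from -0.19 (without WT replicate 2) to -0.041 (without NOD1-deficient replicate 1).

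The name pdpk1b is easily taken for pdk1, which on this array stands for a pyruvate dehydrogenase kinase, a mitochondrial enzyme that restrains the entry of pyruvate into the citric acid cycle. Those are different genes, and their assays gave different results. The pdk1 assay gave a log2 change of -2.0 (adjusted p 3.52e-28 in limma and 0.00186 in the linear model without moderation). That of pdpk1b, for the kinase that phosphorylates Akt and the other AGC kinases, was -0.12.

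The 2 conventional protein kinase C genes had a similar SD in WT but differed in the spread of their NOD1-deficient replicates. Delta Ct of prkca was 2.52, 2.48 and 2.53 in NOD1-deficient larvae, so the highest WT value (2.33) was below the lowest NOD1-deficient value (2.48). The mean went from 2.23 ± 0.131 to 2.51 ± 0.0273 (SD, n = 3 each), 82.4% of the WT level. The log2 change was -0.28 ± 0.160 (SE) with an adjusted p of 0.226 in limma, and the exact permutation p was 0.1, the smallest that 3 replicates against 3 allow. Such separation was seen for 1 of the 5 kinases and for 26 of the 84 genes (31.0%). The replicates of prkca itself gave a smaller SE (0.0771) and a 95% interval of -0.49 to -0.07, where limma gave -0.59 to 0.03. In the linear model without moderation, the adjusted p of prkca over the 84 genes was 0.137.

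For prkcbb, delta Ct was 2.96, 3.19 and 2.69 in NOD1-deficient larvae, so that the lowest and the highest of the 6 values both came from this group. Mean delta Ct was 2.94 ± 0.121 for WT and 2.95 ± 0.250 for NOD1-deficient pools (SD, n = 3 each). The log2 change was -0.0098 ± 0.160 (SE), and limma gave an adjusted p of 0.968. The replicates of prkcbb alone put the 95% interval at -0.45 to 0.44, so that changes within that interval are compatible with these replicates.

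Delta Ct of pkn3 was 3.97, 3.95 and 3.81 in NOD1-deficient larvae, and WT replicate 2 (3.85) lay within that range. WT pools averaged 3.62 ± 0.223 and NOD1-deficient pools 3.91 ± 0.0907 (SD, n = 3 each), 81.6% of the WT level. The log2 change was -0.29 ± 0.160 (SE) with an adjusted p of 0.196 in limma, and the 95% interval ran from -0.61 to 0.02. Without WT replicate 2 the log2 change of pkn3 was -0.41 with an adjusted p of 0.0378 in limma. In that fit the values of pdpk1b (-0.19), prkca (-0.33), prkcbb (-0.047) and sgk1 (-0.026) were lower as well. How many of the 84 genes it called was not recorded. Over the 20 alternatives for pkn3 the adjusted p ran from 0.0351 to 0.962 (both in limma). It was under 0.05 in 3 of them, namely without WT replicate 2 and with scaling to nono alone (lower) or to acta1b alone (higher).

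The delta Ct of sgk1 varied least between replicates, a description that holds for the 3 reference genes used here. Its delta Ct was 0.0050, 0.0722 and 0.0795 in NOD1-deficient larvae, within the WT range of 0.0140 to 0.130 except for replicate 1. Means were 0.0609 ± 0.0615 for WT and 0.0522 ± 0.0411 for NOD1-deficient pools (SD, n = 3 each). The log2 change was 0.0086 with an adjusted p of 0.968 in limma. The SE from the replicates of sgk1 was 0.0427, rank 1 of the 84 genes, closely followed by another gene with 0.0434. The highest SE was 0.654, for a gene detected late (mean WT delta Ct 14.2). Before scaling, the Ct of sgk1 varied more than that of pdpk1b. On the SE of its own replicates, the 95% interval of the sgk1 change was -0.11 to 0.13. By contrast limma, which gave each gene the same SE, set it at -0.31 to 0.32.

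**Figure D2:**
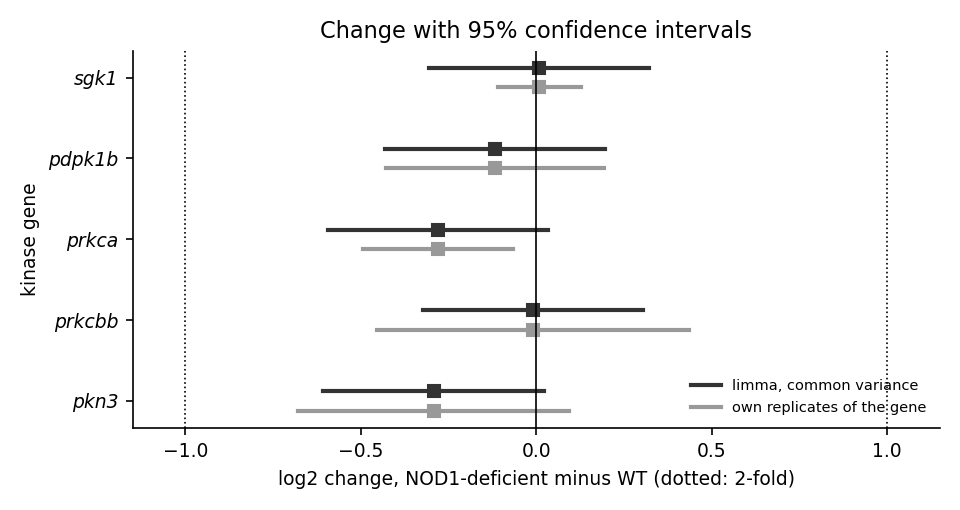
Log2 change of each kinase gene (horizontal axis, NOD1-deficient minus WT, squares) with its 95% confidence interval from limma (dark) and from the replicates of the gene alone (grey). No interval reaches the dotted lines at a 2-fold change, and the grey intervals are narrowest for sgk1 (-0.11 to 0.13) and widest for prkcbb (-0.45 to 0.44).

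The authors' deposited normalized values, 1 per genotype, equal the levels computed here from delta Ct for each of the 5 kinases. They were 0.678 in WT and 0.625 in NOD1-deficient larvae for pdpk1b, and 0.959 and 0.964 for sgk1.

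The activating kinase was then compared with its substrates inside each array. The Ct difference between 2 genes of 1 array needs no reference gene, so this comparison is free of the choice of scaling. In the fit of all other 83 pathway genes against pdpk1b, 11 (13.3%) had an adjusted p under 0.05 in limma, and 0 of the 4 substrate kinases did. None of the 4 had an unadjusted p under 0.05, and the linear model without moderation called 0 of the 4.

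The log2 level of sgk1 relative to pdpk1b was 0.42, 0.59 and 0.49 in WT and 0.82, 0.53 and 0.52 in NOD1-deficient arrays. Its change was 0.13 ± 0.115 (SE) with an adjusted p of 0.541 in limma and a 95% interval of -0.14 to 0.39. The high value of NOD1-deficient replicate 1 was the only one outside the WT range. For prkcbb the relative levels were -2.36, -2.30 and -2.48 in WT and -2.13, -2.60 and -2.09 in NOD1-deficient arrays. The change was 0.11 ± 0.146 (SE), with an adjusted p of 0.707 in limma and an interval of -0.23 to 0.44.

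The other 2 substrates had values below 0. Relative to pdpk1b, prkca was at -1.83, -1.62 and -1.55 in WT and at -1.69, -1.88 and -1.92 in NOD1-deficient arrays. Its change was -0.16 ± 0.116 (SE), with an adjusted p of 0.398 in limma and an interval of -0.43 to 0.10. The relative levels of pkn3 were -3.16, -3.13 and -2.88 in WT and -3.15, -3.35 and -3.20 in NOD1-deficient arrays. Its change was -0.18 ± 0.115 (SE), with an adjusted p of 0.374 in limma and an interval of -0.44 to 0.09. The groups overlapped for all 4 substrates, and the exact permutation p was 0.2 to 0.6. Single arrays moved these small differences. The change of sgk1 was 0.026 without NOD1-deficient replicate 1, and that of pkn3 was -0.086 without WT replicate 3. That of prkcbb ran from 0.016 without NOD1-deficient replicate 3 to 0.27 without NOD1-deficient replicate 2, and was 0.035 without NOD1-deficient replicate 1 and 0.058 without WT replicate 3. That of prkca was -0.11 without WT replicate 3 and -0.24 without WT replicate 1.

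**Figure D3:**
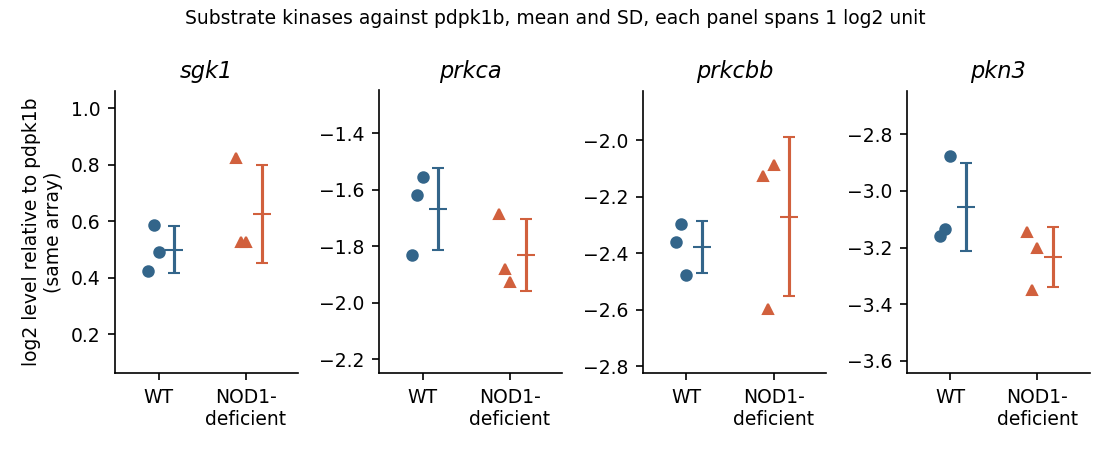
Log2 level of each substrate kinase relative to pdpk1b on the same array (vertical axis, 1 log2 unit in each panel) in WT (circles) and NOD1-deficient larvae (triangles), with mean and SD. The genotypes overlap in each panel, with mean differences of 0.13 for sgk1, 0.11 for prkcbb, -0.16 for prkca and -0.18 for pkn3.

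All 10 pairs of the 5 genes were compared in the same way. In 2 pairs the replicates of the genotypes did not overlap. The first was sgk1 against prkca, whose log2 difference was 2.25, 2.20 and 2.04 in WT and 2.51, 2.40 and 2.45 in NOD1-deficient arrays. It was higher in NOD1-deficient larvae by 0.29 (95% interval from the replicates 0.09 to 0.48, exact permutation p = 0.1). The second was sgk1 against pkn3, higher by 0.30 (interval -0.05 to 0.65, exact permutation p = 0.1). An exact p of 0.1 is the smallest that 3 arrays against 3 allow, so no pair could pass 0.05. After Benjamini-Hochberg adjustment over the 10 pairs it was 0.5 for both. Among single genes, 26 of the 84 (31.0%) did not overlap, and the share over all gene pairs of the array was not computed. The pair prkca and pkn3 moved least against each other, with a difference of -0.01 (interval -0.26 to 0.23). Changes within that interval are compatible with these replicates.

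The direction of the single-gene changes rested on the reference genes. Before any scaling, the Ct of sgk1 was 19.8 ± 0.0943 for WT and 19.5 ± 0.147 for NOD1-deficient pools, and that of pdpk1b was 20.3 ± 0.0859 and 20.2 ± 0.0283 (SD, n = 3 each). In both genes each NOD1-deficient Ct was below each WT Ct (exact permutation p = 0.1 for each). The share of all pathway genes whose unscaled Ct separated in this way was not computed. Whether the separation is particular to sgk1 and pdpk1b was therefore not tested. The positive PCR control wells of the same arrays were also detected earlier with NOD1-deficient pools, by 0.15 cycles (exact permutation p = 0.1). For pdpk1b the unscaled difference was 0.18 cycles and for sgk1 0.31. Scaled to these control wells, the log2 change was 0.026 for pdpk1b and 0.15 for sgk1 (adjusted p 0.879 and 0.465 in limma). Measured from the median change of the pathway genes, it was -0.0049 for pdpk1b and 0.12 for sgk1. Beyond these values, the part of a shift of whole arrays in the unscaled differences was not tested. The 3 reference genes used here were detected earlier as well, by 0.16 cycles for hprt1, 0.46 for nono, 0.27 for rpl13a and 0.30 in their mean. The scaled change of sgk1 was therefore near 0 and that of pdpk1b below 0. Of the 5 reference genes on the array, acta1b and b2m were left out and went the other way. Their Ct in WT minus that in NOD1-deficient larvae was -0.61 and -0.20, and that of the mean of all 5 was 0.015. The unscaled Ct of prkca and pkn3 differed by 0.017 and 0.0040 cycles (exact permutation p = 0.8 and 1). The scaled values of these 2 genes are close to the mean shift of the 3 reference genes used, with the sign turned.

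Under 9 other scalings, pdpk1b was higher in NOD1-deficient larvae in 7 and lower in 2, and it was called once, as higher, with acta1b (skeletal muscle actin) alone. sgk1 and prkcbb were each higher in 8 of the 9, with 3 calls as higher for sgk1 (acta1b alone, b2m alone and the median Ct) and 2 for prkcbb (acta1b alone and b2m alone). Of all 84 genes, the scaling to acta1b called 85.7%, that to b2m 47.6%, that to nono 32.1% and that to the median Ct 29.8%. prkca was lower in 6 and pkn3 in 7, each with 1 call as lower (nono alone) and 1 call as higher (acta1b alone). Every scaling adds 1 constant to all log2 changes, so the spacing between the 5 genes was the same throughout, with pkn3 lowest and sgk1 highest. Measured from the median change of all 84 pathway genes, the values were -0.0049 for pdpk1b, -0.17 for prkca, -0.18 for pkn3, 0.10 for prkcbb and 0.12 for sgk1.

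**Figure D4:**
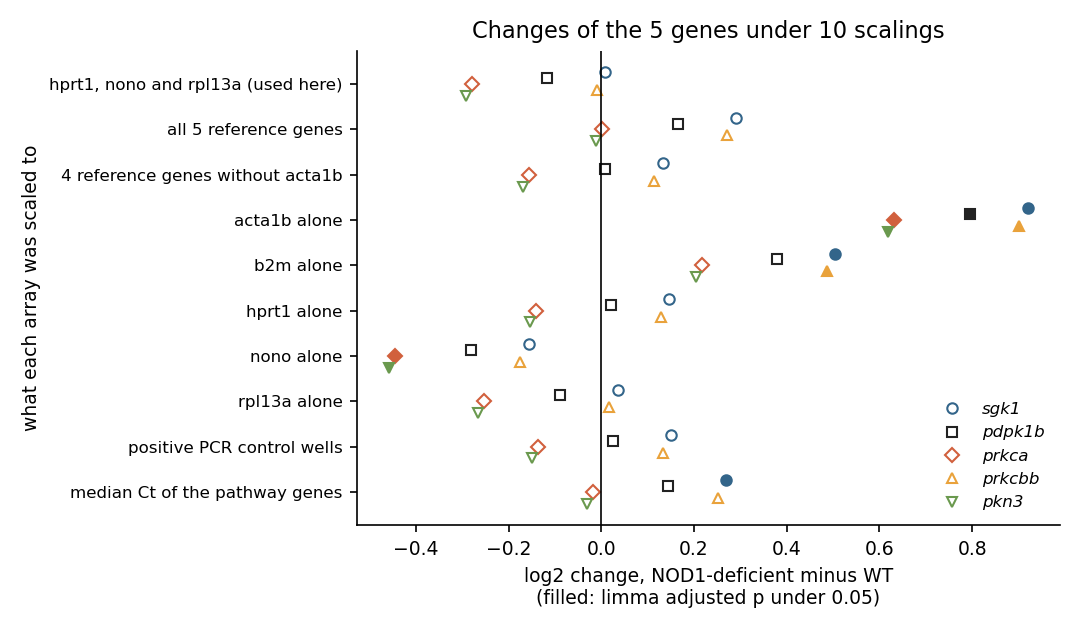
Log2 change of the 5 kinase genes (horizontal axis, NOD1-deficient minus WT) under the scaling used here and 9 others (rows), with filled symbols for an adjusted p under 0.05 in limma. The 5 symbols shift together from row to row, from -0.46 to -0.16 with nono alone up to 0.62 to 0.92 with acta1b alone.

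Levels of some cell type markers differed between the genotypes on the same arrays. With the 3 reference genes, acta1b had a log2 change of -0.91 (SD of delta Ct 0.120 in WT and 0.445 in NOD1-deficient larvae, not among the tested genes). Of 4 leukocyte genes listed, 3 have an assay (btk, faslg and pik3cg). Their summed level, as 2 to the power of minus delta Ct, was 0.0230 to 0.0293 in WT and 0.0170 to 0.0217 in NOD1-deficient larvae. That sum follows btk most, since mean WT delta Ct was 5.90 for btk, 7.01 for pik3cg and 10.5 for faslg. Within that list, limma called btk as lower (log2 change -0.66) and faslg as higher (0.62), neither of which passed without moderation (adjusted p 0.109 and 0.137), while pik3cg had 0.093 with an adjusted p of 0.749 in limma. The part of these shifts in the values of the 5 kinases, of which prkcbb is known from B cells in mammals, was not tested.

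The array holds 6 further AGC kinase genes, and limma called 0 of the 6, of which 2 had an unadjusted p under 0.05, a share near the 29.8% of all genes. The linear model without moderation called none of the 5 that follow. The log2 changes were -0.21 for akt1 and -0.23 for akt2, the kinases that give the pathway its name, and -0.14 for prkcz, an atypical protein kinase C that needs neither calcium nor diacylglycerol. The S6 kinase genes rps6kb1b and rps6ka1 had -0.33 and 0.06, with adjusted p of 0.155 and 0.867 in limma. The median of the 6 was -0.22, against -0.12 for the 5 kinases described here, and 5 of the 6 were below 0.

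Downstream of these kinases, 0 of 5 genes whose proteins are substrates shared by Akt and Sgk (badb, foxo1a, foxo3b, gsk3b and tsc2) passed in limma or in the linear model without moderation, and 2 of the 5 had an unadjusted p under 0.05 in limma, against 25 of the 84 genes. Their log2 changes ran from -0.32 to 0.32. A list of 16 protein kinase genes outside the AGC group was made by symbol. It is not complete and leaves out, among others, the pyruvate dehydrogenase kinase genes given next. Within this list, limma called 1 as higher (eif2ak2, 1.35) and 2 as lower (btk, -0.66, and pak1, -0.43), with a median of -0.13. The share within the list is close to the 19.0% of all genes and depends on the genes left out. Without moderation the adjusted p was 0.0125 for eif2ak2, 0.109 for btk and 0.220 for pak1. Both pyruvate dehydrogenase kinase genes were lower, pdk1 by the value given above and pdk2 with a log2 change of -0.52 (adjusted p 0.00829 in limma). Without moderation the adjusted p was 0.00186 for pdk1 and 0.127 for pdk2, so that only the call of pdk1 held.

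**Figure D5:**
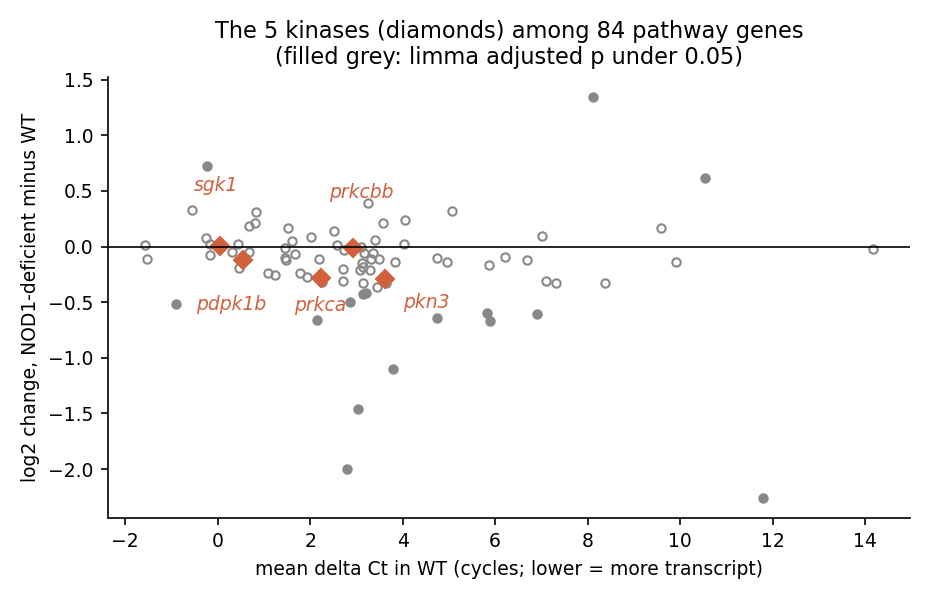
Log2 change (vertical axis, NOD1-deficient minus WT) against mean delta Ct in WT (horizontal axis, cycles) for the 84 pathway genes, with the 5 kinases as diamonds and genes with an adjusted p under 0.05 in limma as filled circles. The 5 kinases lie between delta Ct 0.06 and 3.62 and between log2 changes of -0.29 and 0.01, inside the band of genes that were not called.

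Finally, the pattern of each kinase gene over the 6 arrays was set beside that of the other 83 pathway genes. Likeness was the root mean square difference between the deviations of 2 genes from their own means, in cycles of delta Ct. Among the genes nearest to pdpk1b was hrasa (0.0385), where the median over the 83 genes was 0.159. Nearest to prkca were raf1a (0.0457) and mapk3 (0.0638), both kinases of the MAPK cascade, against a median of 0.178. Nearest to prkcbb were prkcz (0.0903) and mapk8b (0.0927), against a median of 0.244. For pkn3 they were the adaptor genes shc1 (0.0750) and grb10a (0.0851), against a median of 0.189, and shc1 was itself called as lower (log2 change -0.42, adjusted p 0.0479 in limma and 0.166 without moderation). For sgk1 the smallest distances, to ptpn11a (0.0603) and pik3r1 (0.0783), were larger than the deviation of sgk1 from its own mean (0.0429), so no gene can be said to share its pattern. The nearest genes were picked as the smallest of the 83 distances, so they lie below the median by construction. The medians give only a scale, and whether any pattern is shared was not tested. All delta Ct of an array share its 3 reference wells, so these distances are a description of 6 arrays.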

How the data were processed

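According to the labels and methods, TRIzol was used for RNA extraction, SuperScript III for reverse transcription of 1000 ng and SYBR Green for 40 cycles of PCR on a commercial 96-well array. GEO has 1 sample per genotype. The raw table has 3 columns for each, which the design text describes as biological replicates. In the linear model without moderation, p-values rest on the spread of each gene between these pools. In limma that spread was pooled over the pathway genes, whose own SE ran from 0.0427 to 0.654. All these genes were read on the same arrays, so they are not independent measures of that spread. The authors deposited raw Ct, normalized values (linear ratios to reference genes, 1 per genotype) and a table of their own fold changes, which was not used. Delta Ct of the 5 kinases differed from the authors' values by at most 8.37e-09 on the log2 scale.

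All 84 pathway genes were fitted with limma 3.58.1 (lmFit, eBayes) in R 4.3.3 on minus delta Ct. The prior degrees of freedom were infinite, so every gene had the same SE of 0.160. A second fit took the Ct of pdpk1b in place of the reference genes. A Ct difference was taken as a log2 difference, as if product doubled in each cycle. Confidence intervals are at 95%. Those from a gene's own replicates used 4 residual degrees of freedom. The limma fit was tried first on simulated data with independent genes of equal spread, which these genes are not. That trial could not show how the fit behaves when genes share reference wells. Exact permutation tests were two-sided. Array number limits the precision.

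The members and gene lists were chosen with earlier results of these data known. The rule for named genes takes the 5 kinases, pdk1, akt1, akt2, the genes called in a list and the 2 nearest genes of each kinase, less those that are not reported here. prkcz, the S6 kinase genes, pdk2 and the genes of the substrate and leukocyte lists were named after their values were seen. RefSeq (GRCz12tu) lists the accessions of 4 of the 5 assays, that of prkca under prkcaa, while pkn3 matched by symbol only. Alternatives were other reference genes or scalings, a Ct ceiling of 35, a limit of 30 on the mean Ct, other models, a replicate block and leaving out each array.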

Additional observations from a re-analysis of the deposited data

How the results depend on the processing

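The number of the 5 kinases called (0) was 5 when acta1b alone served as reference, 2 for b2m, 2 for nono and 1 for the median Ct of the pathway genes. Those scalings called 85.7%, 47.6%, 32.1% and 29.8% of all 84 genes. The number was 0 to 1 when 1 array was left out, where the share of all 84 genes was not recorded. It was 0 with the other scalings, the Ct ceiling and the limit on mean Ct, and in the other models (no moderation, or limma with trend and robust). The log2 change of pdpk1b turned positive with all 5 reference genes (0.16), without acta1b (0.0073), with acta1b alone (0.79), b2m alone (0.38), hprt1 alone (0.021), the positive PCR control wells (0.026) and the median Ct (0.14). That of prkcbb did so in the same order (0.27, 0.11, 0.90, 0.49, 0.13, 0.13 and 0.25) and with rpl13a alone (0.017). prkca turned positive with all 5 reference genes (0.0019), acta1b alone (0.63) and b2m alone (0.22), and was called with nono alone (-0.44). pkn3 turned positive with acta1b alone (0.62) and b2m alone (0.20), and was called with nono alone (-0.46). sgk1 was called with acta1b alone (0.92), b2m alone (0.51) and the median Ct (0.27), and was negative with nono alone (-0.16). These shifts are 1 constant per scaling. With 1 array left out, the log2 change ran from -0.14 to 0.11 for prkcbb, from -0.41 to -0.19 for pkn3 (the former without WT replicate 2) and from -0.026 to 0.032 for sgk1. The WT delta Ct of sgk1 was 0.18 against the positive PCR control wells. With 1 array left out, that of pdpk1b ran from -0.19 to -0.041. The 4 changes relative to pdpk1b stayed above an adjusted p of 0.05 in each of 11 alternatives, with a lowest adjusted p of 0.156 in limma. Only leaving out an array could alter the values themselves, which moved but kept their direction in 6 of 6 such fits for each gene. The other alternatives left the values as they were, so they could not test the direction. The main fit did not treat replicate numbers as pairs. Deviations of same-numbered arrays correlated at 0.13, 0.098 and -0.27. Arrays of unlike number were not compared, so these values cannot show whether the arrays were paired. With the replicate block 0 of the 5 kinases were called. The spread of 3 arrays per group limits what could be called.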
